A study of Mus musculus with 9 samples.

Results

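Bone marrow cells that carried the fusion gene NUP98-CDX1 were compared with cells that carried the green fluorescent protein EGFP, on 3 arrays of each of the 9 in the series, across 10018 named genes. The 6 arrays were chosen by their titles, and the comparison is described with attention to genes other than the Hoxa cluster, neutrophil and mast cell granule genes and interferon response genes. Both groups, and the 3 arrays of NUP98-CDX4 used for a side-by-side view, came from 5-FU-treated C57/B6 mice, 6 to 8 weeks old. 5-FU is a drug that kills dividing cells. All cells were transfected and grown with stem cell factor, IL-6 and 2% serum, and the groups differ by the gene they received and by a day number. The labels name no vector, promoter or share of cells that took it up. Column names of NUP98-CDX1 alone hold the letters ires, which the labels do not explain. RNA was read on single-colour Illumina mouse bead arrays, 1 array per sample.

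NUP98 is a protein of the nuclear pore, and its fusions to homeobox proteins are known from acute leukaemia. CDX1 and CDX4 are caudal-type homeobox factors, which bind short sites with the letters TTTAT and act on Hox genes in the embryo. NUP98-homeobox fusions are known to keep marrow progenitors dividing in culture and to hold back their maturation into neutrophils and macrophages.

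The column names carry day numbers, which are 28 in NUP98-CDX1, 21 in EGFP and either 17 or 20 in NUP98-CDX4, so day and group cannot be told apart. Whether replicates came from separate cultures or animals is not stated in the labels. The p-values below therefore reflect the spread of these samples alone, which may be technical in part. Each array detected 17257 to 19300 of its 45281 probes, at mean signals of 400.6 to 754.3 intensity units, and the number of arrays limits the precision. By the signals of never-detected probes the arrays fell into a brighter set (EGFP replicates 1 and 2 and NUP98-CDX1 replicate 3 among the 6) and a dimmer set (EGFP replicate 3 and NUP98-CDX1 replicates 1 and 2). Xist, the RNA of the silenced X chromosome, read 11.33, 4.58 and 4.52 on the 3 NUP98-CDX1 arrays and 4.51, 4.50 and 4.51 on those of EGFP, so NUP98-CDX1 replicate 1 stood apart as female. The 3 NUP98-CDX1 arrays were therefore not all repeats of 1 animal's cells, and the part of sex in the calls was not tested. All 10 pan-blood genes on the list of defining markers were measured, and none passed in the limma fit (1 at an unadjusted p under 0.05). The probes of the fused genes gave no check of the labels, since Cdx1 read 5.88, 5.97 and 4.76 in EGFP and 4.69, 5.13 and 5.81 in NUP98-CDX1, and the labels do not place its probe inside or outside the construct.

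NUP98-CDX1 cells held more RNA of the receptor genes Vldlr, Adgrl4 and Hcar2, of the secreted factors Il12a, Ccl3, Hgf and Vegfa and of the regulators Eya1, Pbx3 and Etv4. They held less RNA of Itgb2l, of fibronectin (Fn1), of the cathepsins Ctsh and Ctss and of the macrophage genes Adgre1, Ms4a7 and Apoe. Of 10018 genes, 123 passed an adjusted p of 0.05 (1.23% of genes), 73 upwards (0.729%) and 50 downwards (0.499%). Scaling each array to its median instead gave 56 higher and 58 lower. The 3 NUP98-CDX1 arrays all lay above or all below the 3 EGFP arrays for all 123, as they did for 16.3% of all genes. With array set as a block 619 genes passed (6.18%), and all 123 kept their call there and their sign within each set. Set aside as Hoxa, stefin, granule, mast cell or interferon genes were 23 of the 123, 5 higher and 18 lower. The 5 were Hoxa2, Hoxa5, Hoxa7, Hoxa9 and Nkg7, a membrane protein of cytotoxic granules. The 18 were Stfa2, Stfa2l1, Csta3, Cstdc5, Cstdc6, Camp, Ltf, Lcn2, Mmp9, Olfm4, Cd177, Ifitm6, Cma1, Cma2, Mcpt4, Tpsb2, Ifi204 and Mx1, with falls of 1.12 (Lcn2) to 4.08 (Stfa2) on the log2 scale where NUP98-CDX1 arrays detected them, as they did not for Stfa2l1, Cstdc6, Mmp9, Olfm4 and Tpsb2. This leaves 100 genes, 68 higher and 32 lower, for the account that follows. The count fell from 123 to 41 without NUP98-CDX1 replicate 1, to 32 without replicate 2, to 38 without EGFP replicate 1, to 24 without EGFP replicate 2 and to 74 without EGFP replicate 3. Of the 100 genes, 12 passed under every one of 20 other settings, namely Ccl2, Ccl3, Etv4, Eya1, H2-Ob, Hcar2, Hpgd, Il12a, Itgb2l, Ppm1e, Tgm2 and Vldlr. The other 88 missed the threshold in at least 1 setting. In bulk RNA, a change in the share of cells of a type and a change in RNA per cell cannot be told apart.

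Signals below are log2 intensities, given in the order of replicates 1, 2 and 3. Changes are differences of group means on the same log2 scale, NUP98-CDX1 minus EGFP, with the standard error of the fit after ±, n = 3 arrays per group, and adjusted p-values come from limma with Benjamini-Hochberg adjustment over 13160 features. A probe with a detection p of 0.05 or more on all 3 arrays of a group has only an upper bound there, and its fold is then written with the words at least. A change given for an array set rests on a single array in 1 of the groups and has no test of its own.

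**Figure D1:**
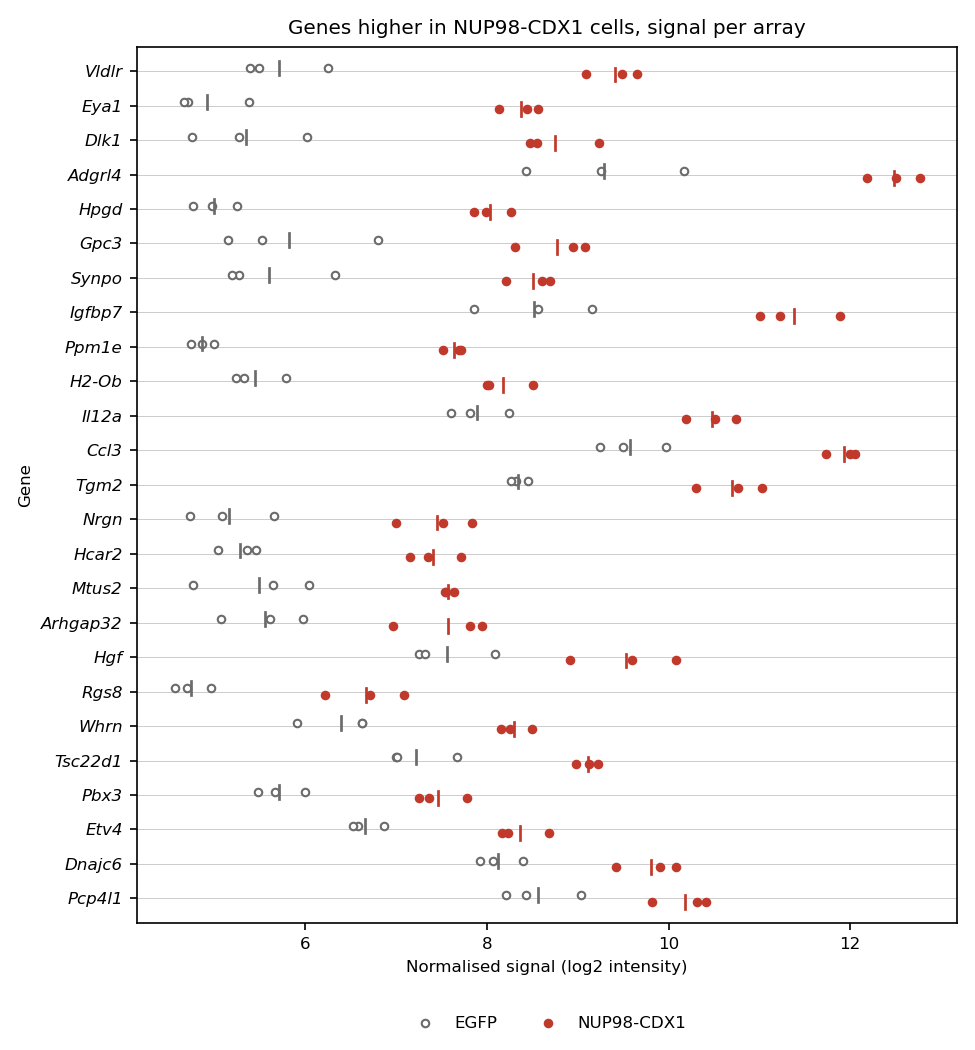
The 25 largest rises by measured mean outside the set-aside lists, with the log2 signal of each array on the horizontal axis and genes on the vertical axis. Open grey points are the 3 EGFP arrays, filled red points the 3 NUP98-CDX1 arrays, and vertical ticks the group means. No red point of a gene overlaps its grey points, and Adgrl4, Il12a, Ccl3 and Tgm2 are bright in both groups, whereas Hpgd, Ppm1e and Rgs8 were undetected in EGFP.

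Among rises with the gene detected in both groups, the largest was that of Vldlr, the very low density lipoprotein receptor, which takes up lipoproteins and binds reelin. Vldlr read 5.49, 5.39 and 6.25 in EGFP and 9.49, 9.09 and 9.65 in NUP98-CDX1, and it was detected on 2 of the 3 EGFP arrays. The groups lay far apart, by 3.70 ± 0.38 (adjusted p = 0.00246), with 4.21 in the brighter set and 3.04 in the dimmer one. Its other 2 probes rose by 3.32 and 3.62. Among 35 measured genes for lipoprotein receptors, apolipoproteins and lipid uptake, Vldlr rose and Apoe, a ligand of that receptor made by macrophages, fell by 1.29 ± 0.23 (adjusted p = 0.0391). Apoe read 8.05, 8.01 and 7.36 in EGFP and 6.41, 6.58 and 6.55 in NUP98-CDX1, so both NUP98-CDX1 and EGFP cells held it at a detectable level and the EGFP arrays were all higher. These calls were 5.71% of the list, beside 1.23% of all genes. The other 33 did not pass, and the median change of the list was -0.27 beside 0.0283 over all genes.

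Other large rises were genes that EGFP cells held at or near the background. Eya1, a phosphatase and transcription coactivator of the eyes absent family, read 4.70, 4.66 and 5.38 in EGFP and 8.13, 8.56 and 8.44 in NUP98-CDX1, with detection on 1 EGFP array. Dlk1, a transmembrane relative of Notch ligands, encoded at an imprinted locus, read 4.76, 6.02 and 5.27 in EGFP and 8.47, 9.24 and 8.55 in NUP98-CDX1. Every NUP98-CDX1 array lay more than 2 log2 units above the highest EGFP array for both genes. Hpgd, the enzyme that inactivates prostaglandins, read 4.97, 5.25 and 4.76 in EGFP and 7.99, 7.86 and 8.26 in NUP98-CDX1. It was undetected on all 3 EGFP arrays and so was at least 6.38-fold higher, with an adjusted p of 3.31e-04. H2-Ob, the beta chain of the class II molecule H2-O, read 5.33, 5.23 and 5.78 in EGFP and 8.005, 8.51 and 8.02 in NUP98-CDX1, with detection on 1 EGFP array.

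Promoter sequences are shown for 4 of the largest rises by measured mean whose listed promoter holds the letters TTTAT or their reverse complement ATAAA. These are the core letters that CDX proteins bind. The choice is not a full ranking, since Synpo, which rose by more than H2-Ob (2.91 against 2.73), was left out of it. The sequences run from 250 bases before to 50 bases after the start of transcription, 5′ to 3′ on the gene's strand. They come from RefSeq in the build GRCm38.p6. Capitals mark the matched letters. Vldlr lies at chr19:27216234-27216533 (plus strand), Dlk1 at chr12:109452573-109452872 (plus strand), Hpgd at chr8:56294302-56294601 (plus strand) and H2-Ob at chr17:34238655-34238954 (plus strand).
Vldlr: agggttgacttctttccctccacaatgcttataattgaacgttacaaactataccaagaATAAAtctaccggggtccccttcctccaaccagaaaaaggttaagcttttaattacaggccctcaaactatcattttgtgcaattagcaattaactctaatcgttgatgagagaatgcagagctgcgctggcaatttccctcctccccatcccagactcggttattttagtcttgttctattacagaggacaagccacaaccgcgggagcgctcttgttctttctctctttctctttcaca
Dlk1: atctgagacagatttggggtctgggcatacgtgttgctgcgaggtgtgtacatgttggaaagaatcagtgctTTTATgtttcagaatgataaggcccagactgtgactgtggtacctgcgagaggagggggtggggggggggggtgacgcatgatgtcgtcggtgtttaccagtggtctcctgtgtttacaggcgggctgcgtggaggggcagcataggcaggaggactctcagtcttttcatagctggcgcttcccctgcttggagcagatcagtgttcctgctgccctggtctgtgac
Hpgd: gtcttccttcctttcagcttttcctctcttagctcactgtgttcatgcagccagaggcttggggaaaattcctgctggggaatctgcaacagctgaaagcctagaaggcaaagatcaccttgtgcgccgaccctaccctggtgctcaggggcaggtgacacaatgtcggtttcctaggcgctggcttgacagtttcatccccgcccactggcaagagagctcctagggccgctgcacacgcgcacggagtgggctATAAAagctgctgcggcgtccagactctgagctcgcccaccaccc
H2-Ob: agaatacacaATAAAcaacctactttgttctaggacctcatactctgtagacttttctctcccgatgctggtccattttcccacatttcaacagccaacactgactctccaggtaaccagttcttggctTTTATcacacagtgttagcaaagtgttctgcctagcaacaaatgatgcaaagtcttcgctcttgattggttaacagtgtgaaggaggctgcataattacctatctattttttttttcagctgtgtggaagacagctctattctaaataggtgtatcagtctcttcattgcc
The match in Hpgd overlaps the letters TATAAA of a TATA box close to the start, and H2-Ob holds 2 matches. For Vldlr this is the first of 2 promoters listed. On either strand the letters occurred in 19 of 58 promoters of genes that rose (32.8%), in 16 of 33 of genes that fell (48.5%), in 25.9% of 8193 promoters of all measured genes and in 40.9% of all 27025 promoters. The longer pattern TGATNNAT, bound by PBX and HOX proteins together, occurred in 5 of 58 (8.62%) and 1 of 33 (3.03%), beside 3.92% of measured genes and 9.04% of all promoters. The MEIS pattern TGACAG occurred in 11 of 58 (19%) and 5 of 33 (15.2%), beside 17% of measured genes and 19.3% of all promoters. Both of these patterns were searched on either strand too. Such matches describe the printed windows and are not binding sites.

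Of the secreted signals, Il12a, the p35 subunit that IL-12 and IL-35 share, read 7.61, 7.81 and 8.24 in EGFP and 10.19, 10.51 and 10.75 in NUP98-CDX1. All 6 arrays detected it and the groups were more than 1.5 log2 units apart, so that it rose 6.04-fold (2.59 ± 0.27, adjusted p = 0.00311). The change was 3.03 in the brighter set and 2.11 in the dimmer one. It was the only one of 21 measured cytokine genes to pass. Among 30 chemokine and chemokine receptor genes, 1 rose and 1 fell (6.67%, beside 1.23% of all genes). Ccl3, an attractant of monocytes and neutrophils, read 9.50, 9.25 and 9.97 in EGFP and 12.06, 11.996 and 11.73 in NUP98-CDX1, and Ccl2, an attractant of monocytes, read 6.99, 6.96 and 7.05 in EGFP and 5.67, 5.56 and 5.76 in NUP98-CDX1. Ccl3 was bright in both groups and higher in NUP98-CDX1, whereas Ccl2 was dim in both and lower there. With array set as a block, 4 of the 30 rose and 7 fell.

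Among growth factors, Hgf, the ligand of the receptor MET, read 7.26, 7.32 and 8.09 in EGFP and 10.09, 9.60 and 8.91 in NUP98-CDX1. Replicate 1 of NUP98-CDX1 was the highest and replicate 3 the lowest of its group, still above all EGFP arrays, for a change of 1.98 ± 0.33 (adjusted p = 0.0306). The other 2 Hgf probes changed by 0.96 and 0.90 and did not pass. Vegfa, which acts on blood vessel cells and is made in low oxygen, rose by 1.44 ± 0.22 (adjusted p = 0.019). The list of 15 growth factors of these families held no further call (13.3% called, beside 1.23% of all genes). Igfbp7, which binds insulin-like growth factors, was the only one of 10 genes of that axis to pass, and it read 8.56, 9.15 and 7.85 in EGFP and 11.01, 11.23 and 11.89 in NUP98-CDX1. Ltbp3, which holds TGF-beta in the matrix, rose by 1.27 ± 0.23 (adjusted p = 0.0418), the only call among 28 genes of the TGF-beta and BMP pathway. In the Notch list of 24 genes 2 passed (8.33%, beside 1.23% of all genes). Dlk1 was joined by Adam17, the protease that sheds TNF and cuts Notch receptors. Adam17 rose by 1.06 ± 0.16 (adjusted p = 0.0175) with 1.01 in the brighter set and 1.13 in the dimmer one. Each of these NUP98-CDX1 arrays lay above all 3 EGFP arrays.

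Matrix genes moved in both directions. Of 41 measured matrix proteins and proteoglycans, 3 rose and 1 fell (9.76%, beside 1.23% of all genes). Gpc3, a heparan sulfate proteoglycan of the cell surface, read 5.15, 5.53 and 6.80 in EGFP and 9.08, 8.95 and 8.31 in NUP98-CDX1. EGFP replicate 3 was the highest of its group, yet below every NUP98-CDX1 array. Col18a1, the precursor of endostatin, rose by 1.54 ± 0.21 from a dim level (adjusted p = 0.0132), and Mfge8, a secreted bridge between phagocytes and dying cells, by 1.34 ± 0.23 from a bright one (adjusted p = 0.0314). Fn1, fibronectin, read 6.59, 6.95 and 7.97 in EGFP and 5.53, 5.19 and 4.77 in NUP98-CDX1, and NUP98-CDX1 arrays detected it on 2 of 3. It thereby fell by 2.01 ± 0.34 (adjusted p = 0.0314), 4.02-fold, with -2.004 in the brighter set and -2.61 in the dimmer one. With array set as a block, 4 matrix genes rose and 5 fell. Outside the list, Tgm2, the tissue transglutaminase that crosslinks matrix and cell proteins, read 8.33, 8.45 and 8.26 in EGFP and 11.03, 10.76 and 10.30 in NUP98-CDX1. Its EGFP arrays lay within 0.2 of each other and its change of 2.35 ± 0.25 (adjusted p = 0.00311) was 5.10-fold. Vit, the matrix protein vitrin, was undetected in EGFP and at least 1.24-fold higher (adjusted p = 0.0314), and Cela1, a serine protease first known from pancreas, rose by 1.08 ± 0.16 (adjusted p = 0.0175). Trf, the iron carrier transferrin, rose by 1.14 ± 0.19 (adjusted p = 0.0287).

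Of 72 measured G protein-coupled receptors, 2 rose and 1 fell (4.17%, beside 1.23% of all genes). Adgrl4, an adhesion receptor of endothelial cells, read 8.43, 9.25 and 10.17 in EGFP and 12.51, 12.77 and 12.19 in NUP98-CDX1. Its EGFP arrays spread widely, from 8.43 in replicate 1 to 10.17 in replicate 3, but all stayed below the NUP98-CDX1 arrays. Hcar2, the receptor for niacin and ketone bodies, read 5.36, 5.03 and 5.46 in EGFP and 7.71, 7.36 and 7.16 in NUP98-CDX1 and was detected on 1 EGFP array. It rose 4.36-fold, by 2.12 ± 0.20 (adjusted p = 0.00173), with 1.96 in the brighter set and 2.07 in the dimmer one. Adgre1, the macrophage antigen F4/80, read 10.16, 10.26 and 9.999 in EGFP and 8.82, 8.87 and 8.83 in NUP98-CDX1, lower on every NUP98-CDX1 array. Opn3, an opsin outside the list, was undetected in NUP98-CDX1 and at least 1.38-fold lower (adjusted p = 0.0488). Downstream of such receptors, 2 of 67 genes for G protein and cyclic nucleotide signalling rose (2.99%, beside 1.23% of all genes). Rgs8, which switches off G proteins and is known from neurons, read 4.56, 4.69 and 4.96 in EGFP and 6.71, 7.08 and 6.22 in NUP98-CDX1. It was undetected in EGFP and at least 2.48-fold higher (adjusted p = 0.0132). Pde4b, which breaks down cyclic AMP, rose by 1.07 ± 0.18 (adjusted p = 0.0314). Prkg1, the cyclic GMP-dependent kinase, was undetected in EGFP and at least 1.61-fold higher (adjusted p = 0.0212), though a second probe changed by -0.33 and did not pass. Gkap1, which anchors that kinase, fell by 0.82 ± 0.13 (adjusted p = 0.0203).

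Igfbp7, Adgrl4 and Fn1 also stand on the list of 15 measured stromal and endothelial genes. The summed linear signal of that list was 3099 to 3631 in EGFP and 9999 to 11250 in NUP98-CDX1. Without Adgrl4 and Igfbp7 the sums were 1991 to 2376 and 1885 to 2115. Of 17 defining stromal and endothelial markers with a probe, 9 were undetected on all 6 arrays, among them Cdh5, Emcn, Cldn5, Col1a1 and Col3a1. The other 8 were detected on at least 1 array, and Pecam1 and Pdgfrb on all 3 arrays of both groups. The 2 genes left out of that sum were the only members called higher, and Fn1, the only one called lower, stayed in. Whether stromal or endothelial cells had a part in the rises of Adgrl4 and Igfbp7 was not tested.

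Receptors of lymphoid and myeloid cells also changed. Cd27, a TNF receptor family member of lymphocytes and early progenitors, rose by 1.46 ± 0.22 (adjusted p = 0.0171), and both other probes passed, at 1.38 and 1.35. It was the only one of 35 genes of its family, and of 15 stem and progenitor genes, to pass. The median change of that progenitor list was 0.424, its summed signal was 27910 to 30710 in EGFP and 41520 to 42980 in NUP98-CDX1, and 7 of the 15 rose with array set as a block. Lat2, an adaptor protein of Fc receptor and kit signalling, rose by 1.38 ± 0.16 (adjusted p = 0.00585) from 11.11, 10.95 and 11.05, the only call among 25 genes of Fc receptor signalling. Muc13, a surface mucin, rose by 0.85 ± 0.16 (adjusted p = 0.0413), and Cd14, a receptor for bacterial lipopolysaccharide, by 0.86 ± 0.15 (adjusted p = 0.0314). Cd14 was the only call among 40 genes of Toll-like receptors, the inflammasome and lipopolysaccharide sensing. The median change of that list was -0.231, and with array set as a block 1 rose and 7 fell. Csf2ra, the alpha chain of the receptor for GM-CSF, was the only one of 38 cytokine receptors to pass, and it fell. Csf2ra read 10.19, 10.28 and 10.22 in EGFP and 9.11, 9.06 and 9.50 in NUP98-CDX1, and its change of -1.01 ± 0.16 (adjusted p = 0.0204) rested on signals that all 6 arrays detected.

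**Figure D2:**
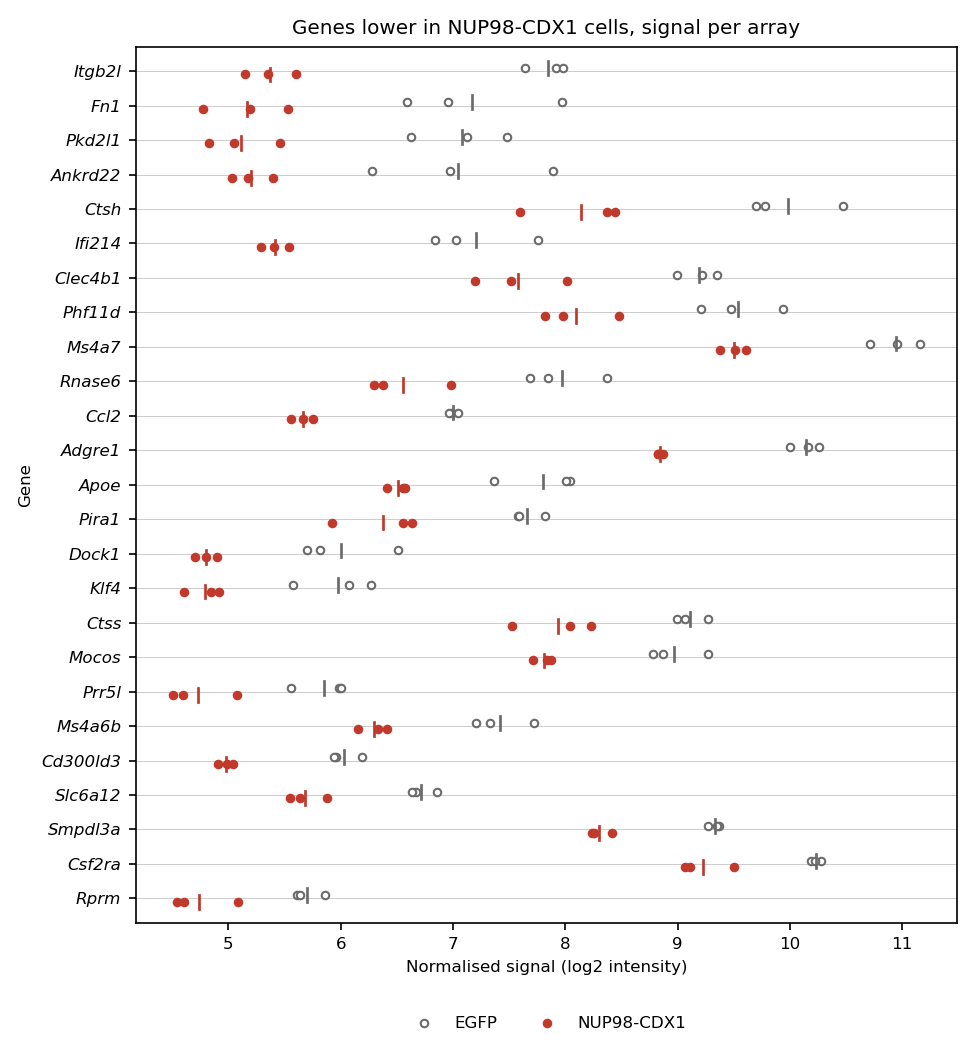
The 25 largest falls by measured mean outside the set-aside lists, drawn as for the rises, with log2 signal per array on the horizontal axis. Each NUP98-CDX1 array (red) lies below all 3 EGFP arrays (open grey). Itgb2l and Fn1 have the widest gaps between group means, and Klf4, Dock1, Rprm, Prr5l, Ankrd22 and Cd300ld3 were undetected on all 3 NUP98-CDX1 arrays.

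Among falls outside the set-aside lists with the gene detected in both groups, the largest was that of Itgb2l, a relative of the beta 2 integrin that is known from mouse marrow neutrophils. Itgb2l read 7.92, 7.98 and 7.64 in EGFP and 5.36, 5.60 and 5.15 in NUP98-CDX1, and NUP98-CDX1 detected it on 2 of 3 arrays. The fall of 2.48 ± 0.16 (adjusted p = 1.95e-04) was 5.57-fold, with -2.80 in the brighter set and -2.16 in the dimmer one. None of the 20 measured genes on the integrin list passed, Itgal having the smallest adjusted p (0.29), and 3 had an unadjusted p under 0.05. The summed signal of the late neutrophil list moved with it, from 125700 to 139000 in EGFP to 57700 to 67520 in NUP98-CDX1, and its part in the fall of Itgb2l was not tested.

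Macrophage genes were among the falls. Of 26 measured monocyte and macrophage genes 5 fell (Adgre1, Klf4, Ctss, Apoe and Ms4a7) and 1, Cd14, rose (23.1%, beside 1.23% of all genes). The median change was -0.781, and with array set as a block 16 fell and 1 rose. The summed signal of the list was 104700 to 120600 in EGFP and 79260 to 94220 in NUP98-CDX1, and its part in other falls was not tested. Klf4, a zinc finger factor of monocyte development, read 6.08, 5.57 and 6.27 in EGFP and 4.60, 4.85 and 4.92 in NUP98-CDX1. It was undetected in NUP98-CDX1 and at least 1.60-fold lower (adjusted p = 0.0281), the only call among 16 Kruppel-like and SP factors. Ms4a7, a tetraspan membrane protein of macrophages, read 10.72, 10.95 and 11.16 in EGFP and 9.38, 9.61 and 9.51 in NUP98-CDX1, and its relative Ms4a6b read 7.72, 7.33 and 7.20 in EGFP and 6.33, 6.41 and 6.15 in NUP98-CDX1. Both were lower on every NUP98-CDX1 array.

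Further immune receptors of myeloid cells were lower. Of 39 measured genes for paired immunoglobulin-like, Cd300, Trem and SLAM receptors, 2 fell and 0 rose (5.13%, beside 1.23% of all genes). The median change was -0.511. Pira1, an activating receptor, read 7.58, 7.58 and 7.82 in EGFP and 5.93, 6.56 and 6.64 in NUP98-CDX1, a change of -1.29 ± 0.24 (adjusted p = 0.0464). Cd300ld3 read 5.96, 6.19 and 5.94 in EGFP and 5.04, 4.91 and 4.99 in NUP98-CDX1. It was undetected in NUP98-CDX1, at least 1.66-fold lower (adjusted p = 0.0281). Of the 39, 11 fell with array set as a block. Clec4b1, a C-type lectin, read 9.22, 9.35 and 8.99 in EGFP and 7.20, 7.52 and 8.02 in NUP98-CDX1, the only call among 36 lectin, Siglec and galectin genes, but its second probe changed by -0.42 and did not pass. These receptors have close relatives, whose RNA a probe may also read.

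Of 59 measured lysosomal genes 2 fell, both cathepsins (3.39%, beside 1.23% of all genes), and the median change of the list was -0.0693. Ctsh, cathepsin H, read 9.70, 9.78 and 10.47 in EGFP and 8.44, 8.37 and 7.60 in NUP98-CDX1, a fall of 1.85 ± 0.34 (adjusted p = 0.0452). Ctss, cathepsin S, which trims the invariant chain of class II molecules, read 8.99, 9.27 and 9.07 in EGFP and 7.53, 8.04 and 8.23 in NUP98-CDX1. The NUP98-CDX1 arrays of both genes were all detected and all below EGFP. Smpdl3a, a phosphodiesterase related to acid sphingomyelinase, read 9.27, 9.37 and 9.35 in EGFP and 8.24, 8.26 and 8.41 in NUP98-CDX1, the only call among 59 sphingolipid and glycolipid genes. Its 3 arrays per group lay within 0.2 of each other, and it fell by 1.03 ± 0.15 (adjusted p = 0.0171). Among 16 class II genes Ctss fell while H2-Ob and H2-Oa, the 2 chains of H2-O, rose (18.8%, beside 1.23% of all genes). H2-O restrains peptide loading of class II molecules. H2-Oa read 7.81, 8.33 and 8.02 in EGFP and 9.19, 9.13 and 8.92 in NUP98-CDX1, and rose by 1.03 ± 0.19 (adjusted p = 0.0383). The other 13 class II genes did not pass.

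Further falls had no shared list. Pkd2l1, a cation channel of the polycystin family, read 6.62, 7.13 and 7.48 in EGFP and 5.46, 4.82 and 5.05 in NUP98-CDX1, and 1 NUP98-CDX1 array detected it. It fell by 1.97 ± 0.27 (adjusted p = 0.0132). Ankrd22 read 7.89, 6.97 and 6.28 in EGFP and 5.03, 5.17 and 5.39 in NUP98-CDX1. The EGFP arrays spread over more than 1 log2 unit, and the gene was at least 3.37-fold lower in NUP98-CDX1, where it was undetected (adjusted p = 0.0464). Ifi214, of the Ifi200 DNA sensor family, read 6.84, 7.02 and 7.75 in EGFP and 5.41, 5.54 and 5.29 in NUP98-CDX1, a fall of 1.79 ± 0.26 (adjusted p = 0.0143). Phf11d, a PHD finger gene, read 9.48, 9.21 and 9.94 in EGFP and 7.98, 8.48 and 7.82 in NUP98-CDX1, a fall of 1.45 ± 0.25 (adjusted p = 0.0322). Both lay lower on each NUP98-CDX1 array, and 2 of 45 measured interferon response genes fell as well (4.44%, beside 1.23% of all genes). The median change of that list was -0.46. At an unadjusted p under 0.05 in the limma fit, 16 of the 45 were lower and 0 higher, beside 11.8% of all genes in either direction. With array set as a block 9 fell and 0 rose. The part of such a change in the falls of Ifi214 and Phf11d was not tested.

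Rnase6, a ribonuclease with antimicrobial activity, read 7.69, 7.84 and 8.37 in EGFP and 6.38, 6.99 and 6.30 in NUP98-CDX1. Its fall was 1.41 ± 0.25 (adjusted p = 0.0348). Dock1, an activator of Rac in engulfment, read 5.70, 5.81 and 6.51 in EGFP and 4.71, 4.90 and 4.80 in NUP98-CDX1. It was at least 1.64-fold lower (adjusted p = 0.0384), since NUP98-CDX1 arrays did not detect it. Mocos, which activates molybdenum enzymes, read 9.27, 8.87 and 8.78 in EGFP and 7.87, 7.84 and 7.71 in NUP98-CDX1. It fell by 1.16 ± 0.16 (adjusted p = 0.0134). Prr5l, a partner of the mTORC2 kinase complex, read 5.99, 5.56 and 6.01 in EGFP and 4.59, 4.51 and 5.08 in NUP98-CDX1, at least 1.47-fold lower (adjusted p = 0.0499). Slc6a12, a transporter of betaine, read 6.67, 6.63 and 6.85 in EGFP and 5.88, 5.54 and 5.63 in NUP98-CDX1. It fell by 1.03 ± 0.14 (adjusted p = 0.0132). Rprm, a mediator of p53-linked growth arrest, read 5.61, 5.64 and 5.86 in EGFP and 5.08, 4.54 and 4.60 in NUP98-CDX1, at least 1.33-fold lower (adjusted p = 0.0373). The remaining falls were Mtus1, B4galt6, Pxn and 2 genes with clone-type names, 1110008P14Rik and Gm12250, by 0.67 (Pxn) to 0.97 (Gm12250).

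Inside the cell, rises included regulators of phosphorylation and 2 actin-binding proteins. Ppm1e, a phosphatase of PAK and CaM kinases, read 4.74, 4.86 and 4.99 in EGFP and 7.51, 7.69 and 7.72 in NUP98-CDX1. It was undetected in EGFP and at least 4.85-fold higher (adjusted p = 1.95e-04). Of its other 3 probes 1 passed, at 1.12, and 2 did not, at 0.68 and 0.42. Among kinases, Nuak1 was undetected in EGFP and at least 1.57-fold higher (adjusted p = 0.0314), and Mast4 and Matk rose by 1.05 and 0.90 (adjusted p = 0.0171 and 0.0464). Arhgap32, a GTPase-activating protein, read 5.08, 5.61 and 5.97 in EGFP and 7.94, 7.81 and 6.96 in NUP98-CDX1, and rose by 2.02 ± 0.34 (adjusted p = 0.0314). Srgap3, which switches off Rac, was at least 1.75-fold higher (adjusted p = 0.0175). Of 93 actin and muscle-type genes Synpo and Pdlim1, both actin-binding, rose (2.15%, beside 1.23% of all genes). The median change of that list was -0.0775, and with array set as a block 2 rose and 7 fell. Synpo read 5.27, 5.19 and 6.32 in EGFP and 8.69, 8.61 and 8.21 in NUP98-CDX1, with 1 of 3 EGFP arrays detected, and Pdlim1 rose by 1.22 ± 0.21 (adjusted p = 0.0314).

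Whrn, a scaffold protein of hair cell bundles, read 6.63, 5.91 and 6.62 in EGFP and 8.15, 8.50 and 8.25 in NUP98-CDX1. It rose by 1.91 ± 0.26 (adjusted p = 0.0132), and all 6 arrays detected it. Nrgn, a calmodulin-binding protein of neurons, read 4.73, 5.08 and 5.65 in EGFP and 7.84, 7.52 and 6.99 in NUP98-CDX1, detected on 1 EGFP array. It rose by 2.30 ± 0.27 (adjusted p = 0.00585), with 2.08 in the brighter set and 2.03 in the dimmer one. Pcp4l1, a relative of the calmodulin regulator Pcp4, read 9.04, 8.22 and 8.43 in EGFP and 9.81, 10.31 and 10.41 in NUP98-CDX1. It rose by 1.62 ± 0.24 (adjusted p = 0.0165), while its second probe, at 1.25, did not pass. Dnajc6, auxilin, which strips clathrin from vesicles, read 8.40, 8.06 and 7.92 in EGFP and 10.08, 9.42 and 9.91 in NUP98-CDX1. It rose by 1.68 ± 0.25 (adjusted p = 0.0175), and its second probe by 1.75. Mtus2, a microtubule-binding protein, read 6.04, 4.77 and 5.65 in EGFP and 7.55, 7.53 and 7.64 in NUP98-CDX1. The change of 2.09 ± 0.31 (adjusted p = 0.0176) was not seen at its other probe, which changed by 0.10 and did not pass. Its relative Mtus1 fell by 0.89 ± 0.16 (adjusted p = 0.0389).

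In the nucleus, several regulators passed. Etv4, an ETS factor downstream of growth factor signals, read 6.57, 6.87 and 6.53 in EGFP and 8.68, 8.23 and 8.16 in NUP98-CDX1. It rose by 1.70 ± 0.19 (adjusted p = 0.00358), with 1.44 in the brighter set and 1.93 in the dimmer one, the only one of 18 ETS factors to pass. Pbx3, a partner of Hox proteins, read 5.66, 5.48 and 5.99 in EGFP and 7.36, 7.78 and 7.25 in NUP98-CDX1, the only call among 45 homeobox genes outside the Hoxa cluster, of which 7 rose with array set as a block. Gbx2, a homeobox gene that this list does not hold, rose by 1.13 ± 0.16 (adjusted p = 0.0141). Tsc22d1, a leucine zipper protein induced by TGF-beta, read 6.995, 7.01 and 7.67 in EGFP and 9.22, 9.12 and 8.99 in NUP98-CDX1. It rose by 1.89 ± 0.25 (adjusted p = 0.0108), but a second probe changed by 0.28 and did not pass. H1f10, a linker histone, was undetected in EGFP and at least 2.06-fold higher (adjusted p = 0.0132), the only call among 59 histone genes. Mef2c and Gfi1b, factors of blood cell development, rose by 1.23 and 1.01 (adjusted p = 0.0314 and 0.0314). They were 2 of 81 genes of their list (2.47%, beside 1.23% of all genes). Tfdp2, a partner of E2F factors, rose by 0.83 ± 0.16 (adjusted p = 0.0464), and Rbpms, an RNA-binding protein, by 1.08 ± 0.19 (adjusted p = 0.0327), with its 3 other probes at 1.13 to 1.26.

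Of 37 genes of the BCL2 and caspase list 2 passed (5.41%, beside 1.23% of all genes). Bcl2, which blocks cell death, rose by 0.89 ± 0.14 (adjusted p = 0.0218), and Pmaip1, which promotes it, by 1.07 ± 0.19 (adjusted p = 0.0348). Other probes of both did not pass, 4 of 5 for Bcl2. Of 51 genes of glycolysis and low-oxygen response, Vldlr, Vegfa and Ankrd37 rose (5.88%), 0 fell, and 8 rose with array set as a block. Ankrd37, a target of low-oxygen signalling, rose by 1.46 ± 0.22 (adjusted p = 0.0171). The transporters Abca4, known for retinoids in photoreceptors, and Slc22a23 were undetected in EGFP and at least 1.72-fold and 1.68-fold higher (adjusted p = 0.0141 and 0.0203). Ank, which exports pyrophosphate, rose by 1.43 ± 0.26 (adjusted p = 0.0373).

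The remaining rises were Dmwd, Gimap1, Armcx1, Plscr4, Tmem159, Myadml2, Fbxo44, Klhl24, Arfgef3, Asph and Prxl2a, by 0.95 (Prxl2a) to 1.58 (Dmwd). Of these, Plscr4, a membrane scramblase, was undetected in EGFP and at least 2.09-fold higher (adjusted p = 0.0271). Gimap1, a GTPase of lymphocytes, was the only call among 13 genes of its list and its second probe changed by 0.35 and did not pass.

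**Figure D3:**
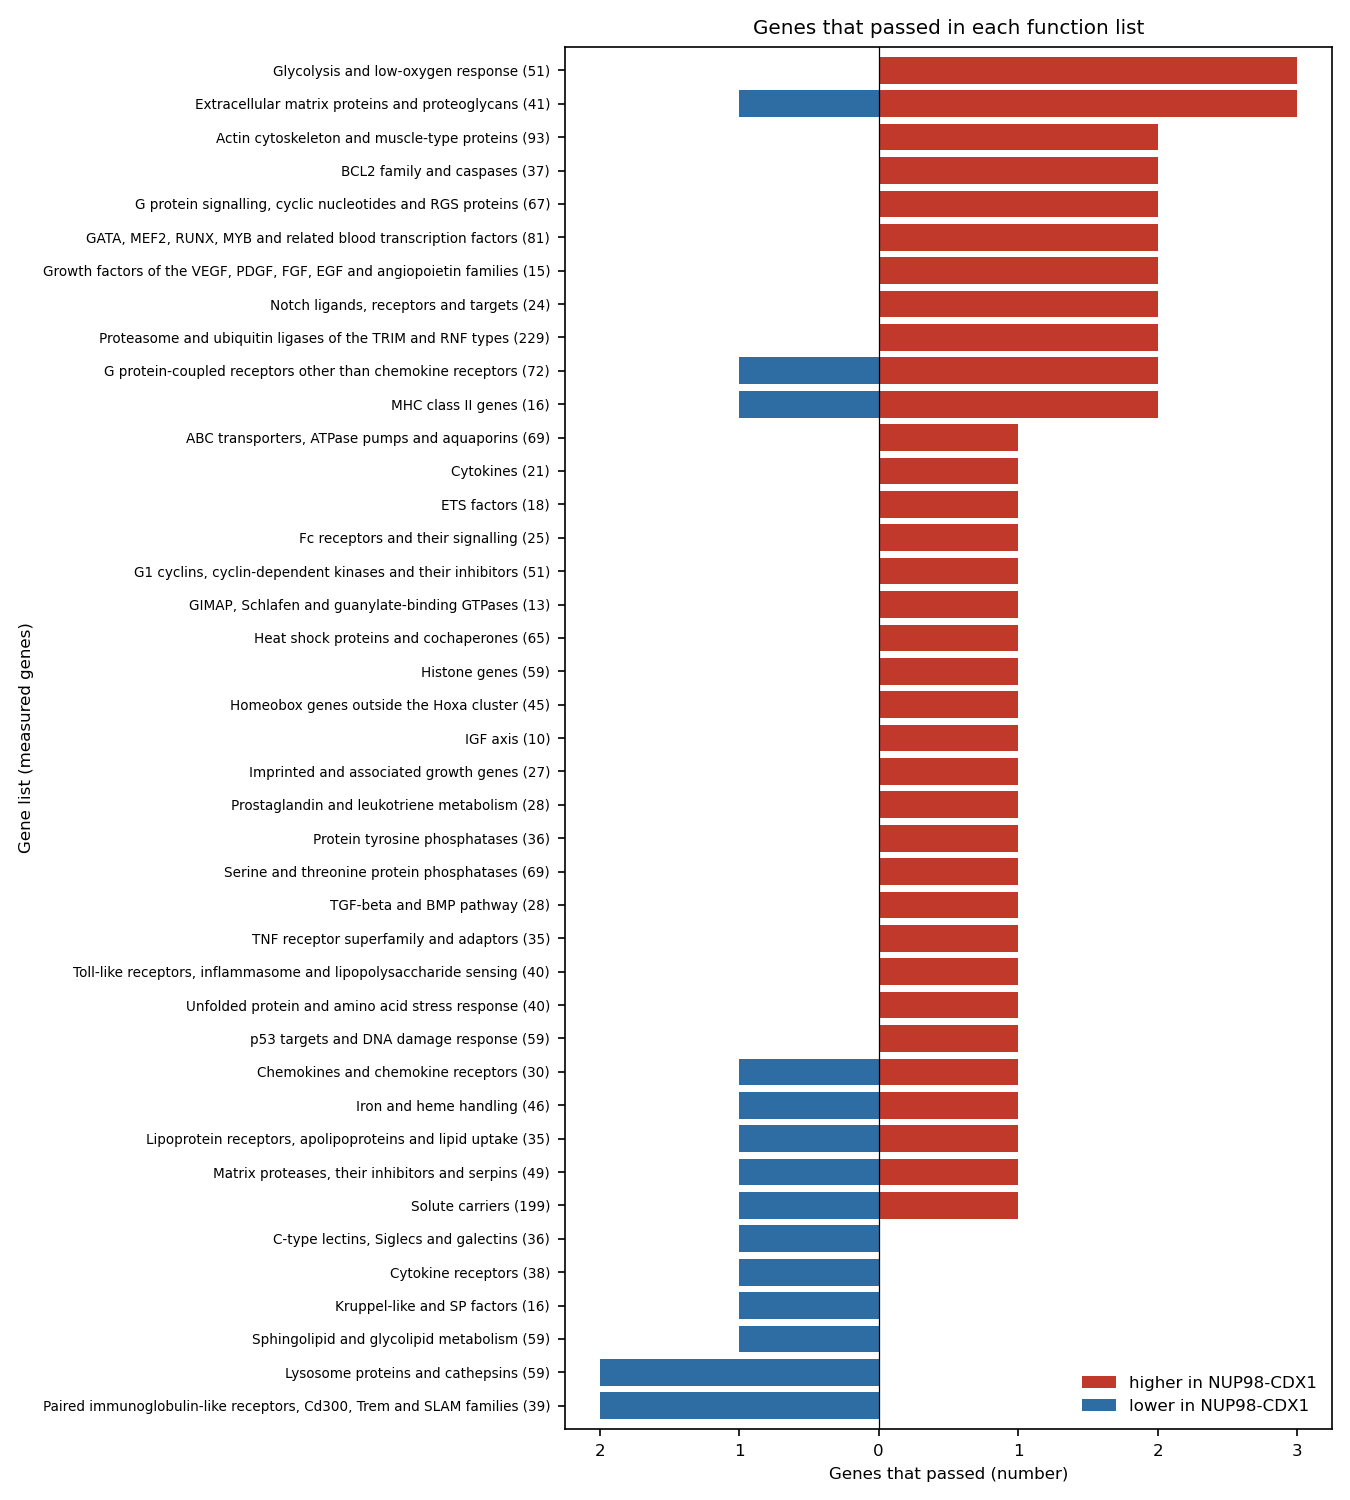
Number of genes that passed in each of the 41 function lists with a call, out of 73 lists. Bars to the right count genes higher in NUP98-CDX1 and bars to the left genes lower, and the number of measured genes follows each name. Glycolysis and low-oxygen response and extracellular matrix proteins hold 3 rises each, and lysosome proteins and paired immunoglobulin-like receptors hold 2 falls each.

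Across 73 function lists, 41 held at least 1 called gene and 32 held none. Rises alone were found in 27 lists and falls alone in 6. List medians ran from -0.511 for the paired immunoglobulin-like receptors to 0.226 for glycolysis and low-oxygen response, against 0.0283 for all genes. No gene passed in the limma fit among 58 DNA replication, 75 mitosis, 55 ribosomal protein and 80 oxidative phosphorylation genes, whose medians were 0.0991, -0.0771, 0.0446 and -0.00762. At an unadjusted p under 0.05 there were 4, 1, 2 and 2 genes in the same order, beside 1187 of all genes (11.8%). The smallest adjusted p in these lists was 0.362 for Chaf1b, 0.181 for Ncaph2, 0.294 for Rps15a and 0.0757 for Cox6b2. None of 73 genes of the RAS and MAP kinase list passed, where Dusp6 came nearest (change 0.77, adjusted p = 0.0881) and 10 genes, all higher, had an unadjusted p under 0.05. Stat2 came nearest of 27 JAK, STAT and SOCS genes (-0.75, adjusted p = 0.151), Csf1r of 14 receptor tyrosine kinases (-0.73, adjusted p = 0.106) and Mllt3 of 162 histone and DNA modifiers and remodellers (1.15, adjusted p = 0.0625). The last 3 of these lists held 4, 1 and 14 genes at an unadjusted p under 0.05. Of 16 tetraspanins and 209 Zfp genes none passed. At an unadjusted p under 0.05, 6 tetraspanins were higher and 0 lower, and 28 Zfp genes were higher and 3 lower. With array set as a block 5 and 9 rose and 0 of either fell, while 323 of all 10018 genes rose and 296 fell in that fit.

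**Figure D4:**
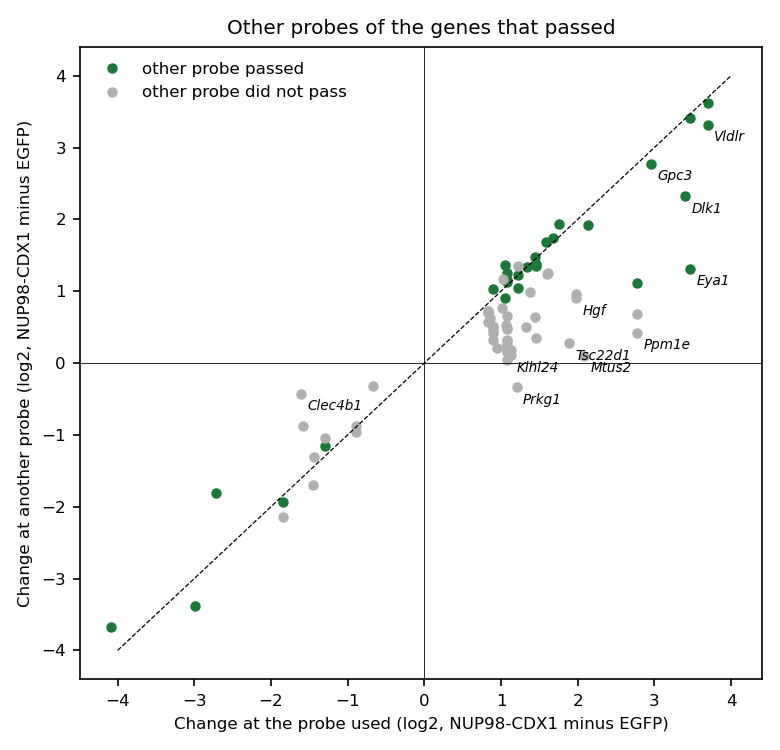
Change at each further probe of the genes that passed (vertical axis) against the change at the probe used (horizontal axis), both in log2 units of NUP98-CDX1 minus EGFP. Green points passed and grey points did not, the dashed line marks equal change, and labelled genes include Vldlr, Eya1 and Gpc3 close to it or passing, and Mtus2, Tsc22d1, Klhl24 and Clec4b1 near 0.

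Many genes had more than 1 probe, which bears on how far a value stands for the gene. For 43 of the 100 genes another probe was measured, 71 probes in all, and 70 of them changed in the same direction. At 26 of the 43 genes every other probe changed at least 0.5 times as far. Probes moved less at, among others, Asph, whose 9 other probes changed by 0.05 to 0.65 and did not pass, at Klhl24 (0.11 and 0.19), Arfgef3 (0.18), Prxl2a (0.21), Srgap3 (0.65), Tmem159 (0.50) and Pxn (-0.32). The gene values given above come from the brightest probe.

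**Figure D5:**
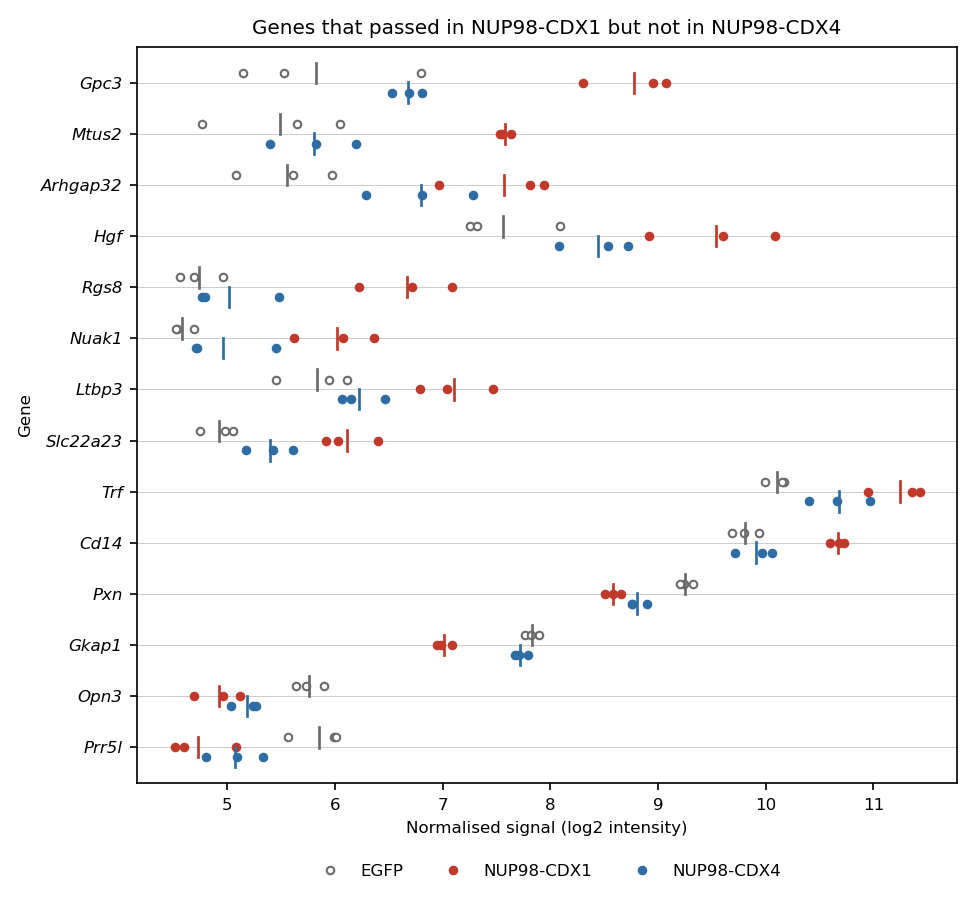
Log2 signal per array (horizontal axis) of the 14 genes that passed in NUP98-CDX1 but not in NUP98-CDX4, each against EGFP. Open grey points are EGFP, red NUP98-CDX1 and blue NUP98-CDX4, 3 arrays each, with ticks at the group means. The NUP98-CDX4 arrays of Mtus2 and Rgs8 lie with or near EGFP, and the NUP98-CDX4 means of Arhgap32 and Hgf lie between those of the other groups.

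The second fusion offered a side-by-side view, though both comparisons share the EGFP arrays. Against EGFP, 611 genes passed in NUP98-CDX4 (6.1%). Of the genes that rose in NUP98-CDX1, 63 of 73 also rose there, and of those that fell, 46 of 50, with 0 called in opposite directions. The direct test between the fusions passed for 18 genes (0.18%), of which 6 belong to the 123. That count ran from 0 without NUP98-CDX1 replicate 1 to 30 without NUP98-CDX4 replicate 2. It was 1 without NUP98-CDX1 replicate 2, 11 without its replicate 3, 2 without NUP98-CDX4 replicate 1, 7 without NUP98-CDX4 replicate 3 and 6 without EGFP replicate 2, and 168 with array set as a block. Hpgd read 10.94, 10.23 and 10.34 in NUP98-CDX4 and Myadml2 8.04, 8.27 and 7.91, so both rose further there, and Camp, Csta3, Stfa2 and Mx1, of the set-aside lists, fell further.

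The 14 genes that passed in NUP98-CDX1 alone were chosen by their calls on these same arrays, which favours a difference between the fusions. All had the same sign in NUP98-CDX4, and 0 of the 14 passed the direct test in the limma fit (11 had an unadjusted p under 0.05). Rgs8 came nearest, at 4.77, 5.48 and 4.80 in NUP98-CDX4, a difference of 1.66 (adjusted p = 0.0639, and 0.00302 under the block on array set). Gpc3 read 6.80, 6.69 and 6.53 there, a difference of 2.10 (adjusted p = 0.0981, and 0.0189 with the block). Mtus2 read 5.83, 6.20 and 5.39, a difference of 1.77 (adjusted p = 0.0929, and 0.037 with the block). The NUP98-CDX4 arrays of these 3 genes all lay below the NUP98-CDX1 arrays. Cd14 read 9.96, 10.06 and 9.71, close to EGFP, a difference of 0.76 (adjusted p = 0.116, and 0.0193 with the block). Gkap1 read 7.67, 7.71 and 7.79, a difference of -0.71 (adjusted p = 0.0929, and 0.0166 with the block). Nuak1 was the sixth that passed with the block (0.0269), and its adjusted p without it was 0.186. The other 8, Arhgap32, Hgf, Ltbp3, Slc22a23, Trf, Pxn, Opn3 and Prr5l, had adjusted p-values of 0.228 (Slc22a23) to 0.879 (Prr5l) between the fusions, which does not show that the fusions act alike.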

How the data were processed

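Total RNA of 9 samples was hybridised to Illumina arrays of 45281 probes. The main values are raw probe intensity, which the authors deposited as a non-normalized table made with GenomeStudio, per the submitters' processing notes, and the detection p-value beside each intensity was taken as deposited. The authors' deposited processed intensity values, of unstated normalization, served as an alternative.

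The function neqc of limma 3.58.1 (R 4.3.3, with version 1.17.8 of the data.table package) corrected the background, using negative controls that it infers from detection p-values, added an offset of 16 and quantile normalized the arrays. Of the probes, 34885 had 1 symbol in the platform annotation, 18 several and 10378 none. The filter kept 19472 probes that reached a detection p under 0.05 on 3 or more arrays, and the brightest stood for a gene, giving 13160 features, of which 3142 have no symbol and are only counted. All 9 arrays entered one limma model of group means, with Benjamini-Hochberg adjustment and a threshold of 0.05. Where a group detected a probe on 0 of 3 arrays, each of its arrays was raised to its lowest detected signal for the bound.

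Array values are given for the 25 largest rises and falls by measured mean among called genes outside the set-aside lists, passing over clone names, and every called member of a function list is named. A further function list is not reported here. The members, gene lists and rules were chosen with earlier results of these data known. Alternatives were other normalizations, offsets, filters and probe rules, array set or replicate number as a block, and leaving out each array. Array sets were found in the data and not in the labels. The pipeline was tested on simulated data.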

Additional observations from a re-analysis of the deposited data

Results flagged for a closer look

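Between the fusions, 18 genes passed the direct test, a test of whether their changes from EGFP differed. In signed log2 units of NUP98-CDX1 minus NUP98-CDX4, the largest difference among genes detected in both fusions was 3.93 for Stfa1 (adjusted p = 0.0277), followed by 2.95 for Cpa3, the mast cell carboxypeptidase (adjusted p = 0.00339), 2.53 for Stfa2 (adjusted p = 0.0126) and 2.52 for Hsd11b1, which regenerates glucocorticoids (adjusted p = 0.0277). Stx3, a syntaxin of granule release, was at least 4.49-fold higher in NUP98-CDX1 (adjusted p = 0.0393), since NUP98-CDX4 arrays did not detect it. Oasl1 differed by 2.03 (adjusted p = 0.0234), Camp by 1.97 (adjusted p = 0.0234), Fcer1a, the IgE receptor alpha chain, by 1.70 (adjusted p = 0.0393), Mx1 by 1.67 (adjusted p = 0.0486) and Rgcc by 1.60 (adjusted p = 0.0431). The tight junction gene Cldn15 differed by 1.57 (adjusted p = 0.0234) and Anxa1, annexin A1, by 1.19 (adjusted p = 0.0194). Csta3 and Mogat2, an enzyme of triglyceride synthesis, were undetected in NUP98-CDX4 and at least 1.79-fold and 2.24-fold higher in NUP98-CDX1 (adjusted p = 0.0393 and 0.0236).

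Hoxa10 was undetected in NUP98-CDX1 and in EGFP, and at least 1.71-fold lower in NUP98-CDX1 than in NUP98-CDX4 (adjusted p = 0.0234). Also lower in NUP98-CDX1 were Myadml2, at -1.46 (adjusted p = 0.0492), Clec10a, a C-type lectin, at -1.71 (adjusted p = 0.0194), and Hpgd, at -2.47 (adjusted p = 0.00732). Against EGFP, 12 of the 18 did not pass in NUP98-CDX1. Cpa3, for example, averaged 8.73 in NUP98-CDX4, 11.68 in NUP98-CDX1 and 11.79 in EGFP cells. The day numbers of the fusions differ as well, so day and fusion cannot be told apart.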

How the results depend on the processing

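No call reversed under any of the 20 settings. With array set as a block, 619 genes passed against EGFP (323 higher, 296 lower) and 168 between the fusions. With replicate number as a block 31 passed (17 higher, 14 lower) and 1 between the fusions. All 31 lay among the 123. Deviations from the group mean of same-numbered EGFP and NUP98-CDX1 arrays correlated at -0.394, -0.445 and -0.789. No NUP98-CDX1 array correlated best with the EGFP array of its own number. Every same-numbered pair had 1 array in the brighter and 1 in the dimmer set. These values therefore cannot show whether the numbers pair the samples. The authors' processed intensities gave 76 lower, and no detection filter gave 28 lower and 8 between the fusions. Leaving out single arrays gave 24 to 133 genes in all, 15 to 78 higher, 9 to 55 lower, and 0 to 30 between the fusions (0 without NUP98-CDX1 replicate 1, 30 without NUP98-CDX4 replicate 2). The total stayed within 1.5 times of 123 under the other normalizations, offsets, filters and probe rules.

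Precision is limited by 3 arrays per group, by probes at the background in 1 group, which give bounds only, and by day numbers and array sets that the labels do not explain. Fits within an array set have a single array in 1 group and give values with no test.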

Other observations

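Some called genes lay near each other. With the 123 called genes in their order along GRCm38.p6, 14 consecutive pairs lay within 500 kb, and all 14 changed in the same direction. Genes that were not called may lie between them. In 5 pairs at least 1 gene lay outside the set-aside lists. These were H2-Oa with H2-Ob and Dnajc6 with Pde4b, which rose, and Ifi214 with Ifi204, Ms4a7 with Ms4a6b and 1110008P14Rik with Lcn2, which fell. No distance from chance was tested.

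Of 3142 probes without a symbol, 14 passed. Of 11 measured megakaryocyte and platelet genes 0 passed in the limma fit (2 at an unadjusted p under 0.05), with summed signals of 11750 to 13070 in EGFP and 13840 to 15130 in NUP98-CDX1. Of 10 basophil and eosinophil genes 0 passed in that fit (4 at an unadjusted p under 0.05), with sums of 9325 to 12730 and 6606 to 7415, and 3 fell with array set as a block.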
